A study of Mus musculus with 63 samples.

Results

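The nuclear-encoded subunits of the mitochondrial respiratory chain were followed across 63 RNA-seq libraries from organotypic entorhino-hippocampal tissue cultures of the mouse. Members were chosen by a rule on gene symbols and gene type, which was set with earlier results of these data known. They are the genes annotated as protein-coding whose names start with Nduf followed by a, b, c, s or v and a number, with Cox4i, Cox5, Cox6, Cox7 or Cox8, with Uqcr or with Atp5, and the genes Sdha to Sdhd. This rule gave 86 of the 55291 gene symbols counted, of which 38 belong to complex I, 4 to complex II, 8 to complex III, 19 to complex IV and 17 to complex V. A further 15 matching symbols are annotated as other gene types and were not members. Ndufa4 and Ndufa4l2 stand under complex I by their names, although the Ndufa4 protein is known as a part of cytochrome c oxidase.

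Cultures came from C57BL/6J mice (wildtype, WT, Synpo+/+) or from B6.129-Synpotm1Mndl/Dllr mice (Synpo-/-), which lack synaptopodin, the protein needed for the spine apparatus of dendritic spines, and had been backcrossed to C57BL/6J. They were prepared between postnatal days 3 and 5 from animals of either sex and matured for at least 18 days in vitro. In the regional experiment, the dentate gyrus (DG) or CA3 of 1 culture gave 1 library, without lesion (control) or 3 days after a scalpel cut through the perforant path (entorhinal cortex lesion, ECL), which removes the entorhinal input to the hippocampus. There were 4 WT control and 7 WT ECL libraries of the DG, 2 and 3 of CA3, and 7 and 4 (DG) and 6 and 6 (CA3) of those labelled Synpo-/-. In the synaptopodin co-immunoprecipitation (coIP), 5 or 6 cultures were pooled for each sample (6 per the labels), and RNA bound with an antibody to synaptopodin was sequenced beside RNA of the lysate (input). There were 5 coIP and 5 input samples each for WT control and WT ECL, and 2 and 2 labelled synaptopodin-deficient, whose lesion state the labels do not give. The labels do not say which cultures shared an animal, or whether a DG and a CA3 library came from the same culture. The p-values thus measure the spread between cultures or pools.

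The respiratory chain sits in the inner mitochondrial membrane. Complex I takes electrons from NADH and complex II from succinate, complex III passes them to cytochrome c, complex IV (cytochrome c oxidase) hands them to oxygen, and complex V uses the resulting proton gradient to make ATP. Most subunits are encoded in the nucleus and made on cytosolic ribosomes, while a small set is encoded by mitochondrial DNA and made inside the organelle. Several subunits of complex IV have a ubiquitous form and a form known from particular tissues, such as Cox6a2 and Cox7a1 of heart and skeletal muscle, Cox6b2 of testis and Cox4i2 of lung.

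Nuclear respiratory genes are known for promoters that bind NRF-1, ETS factors, ERR or YY1. Promoter sequences from RefSeq (GRCm38.p6), from 250 bases before to 50 bases after the start, were found for 68 of the 86 members. Letters searched on both strands were GCGCATGCG for NRF-1, CCGGAAGT for ETS, AAGGTCA for ERR and AAGATGGCG for YY1. The NRF-1 letters were in 8 members (11.8%, against 1.95% of 27025 promoters of the same length), the YY1 letters in 7 (10.3% against 1.64%), the ERR letters in 8 (11.8% against 5.38%) and the ETS letters in 5 (7.35% against 4.31%). At least 1 of them was found in 25 members (36.8% against 12.6%). Cox6a1, Uqcrc1 and Cox8a are shown because they lay among the 12 members not lower in coIP, and Cox6b2 because it was higher after ECL. Capitals mark the NRF-1 letters in Cox6a1 and Uqcrc1, where the matches on both strands overlap, and the ETS letters in Cox8a, and none of the letters searched are in this window of Cox6b2.
Cox6a1 (chr5:115348909-115349208, minus strand): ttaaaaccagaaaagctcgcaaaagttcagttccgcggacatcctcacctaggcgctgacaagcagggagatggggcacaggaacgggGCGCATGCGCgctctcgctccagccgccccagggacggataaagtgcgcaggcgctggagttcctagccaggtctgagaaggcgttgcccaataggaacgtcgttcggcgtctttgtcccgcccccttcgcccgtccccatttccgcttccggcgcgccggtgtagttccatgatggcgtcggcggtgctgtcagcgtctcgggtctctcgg
Uqcrc1 (chr9:108936398-108936697, plus strand): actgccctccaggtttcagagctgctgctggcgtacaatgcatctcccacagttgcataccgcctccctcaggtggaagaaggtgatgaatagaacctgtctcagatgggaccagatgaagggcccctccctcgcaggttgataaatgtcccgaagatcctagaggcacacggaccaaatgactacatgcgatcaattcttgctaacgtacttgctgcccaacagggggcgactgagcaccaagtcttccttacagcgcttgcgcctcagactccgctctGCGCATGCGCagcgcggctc
Cox8a (chr19:7217567-7217866, minus strand): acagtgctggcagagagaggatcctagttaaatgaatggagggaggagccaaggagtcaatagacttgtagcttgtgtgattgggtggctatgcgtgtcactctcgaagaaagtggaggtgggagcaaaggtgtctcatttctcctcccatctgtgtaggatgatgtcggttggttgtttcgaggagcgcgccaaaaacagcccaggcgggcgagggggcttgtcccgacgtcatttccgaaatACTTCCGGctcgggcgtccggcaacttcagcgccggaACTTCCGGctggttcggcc
Cox6b2 (chr7:4753045-4753344, minus strand): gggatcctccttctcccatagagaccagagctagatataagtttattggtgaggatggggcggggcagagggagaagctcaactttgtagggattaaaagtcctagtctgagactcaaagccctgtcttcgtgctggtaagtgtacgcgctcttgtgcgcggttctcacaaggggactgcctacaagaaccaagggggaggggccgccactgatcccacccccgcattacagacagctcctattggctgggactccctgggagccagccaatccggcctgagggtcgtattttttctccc

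Sequencing depth was 14055930 to 46043990 counts per library in the regional experiment and 11601154 to 53682143 in the coIP experiment. Counts of Synpo itself were not lower under the Synpo-/- label (30.4 to 69.3 normalised CPM in regional libraries labelled Synpo-/- against 19.1 to 38.4 in WT), so these libraries are named by their label throughout. The library labelled WT DG ECL replicate 5 stood apart. It had 15.5 normalised CPM of Prox1, a transcription factor of granule cells, against 169.6 to 216.5 in the other 6 libraries of its group, and 408 of Cpne4, a CA3 marker, against 126 to 163, and the main results it enters are given with and without it. Normalised CPM are counts scaled to a library total of 1000000 after TMM normalisation. Replicate 1 of the CA3 control libraries labelled Synpo-/- had 44.0 normalised CPM of Prox1, and no fit was run without it.

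Levels per kilobase (kb) of the annotated principal transcript are the only scale on which genes are compared with each other here. Reads were counted over all exons of a gene, which can be longer than that transcript. In WT DG control, Ndufa4 had 1719.7 ± 158 normalised CPM per kb, Cox6a1 1516 ± 448 and Cox6c 1251 ± 173 (SD, n = 4). The tissue-restricted forms were lower in the same libraries, with 54.2 ± 23.0 per kb for Cox6a2, 16.6 ± 1.66 for Cox4i2, 11.5 ± 1.42 for Cox6b2, 11.1 ± 2.14 for Cox7a1 and 5.41 ± 1.27 for Ndufa4l2, a paralog of Ndufa4. Complex II, whose subunits Sdha to Sdhd form succinate dehydrogenase, had the lowest median level per kb of the 5 complexes (63.3, against 221 for complex IV, 286 for I, 335 for V and 502 for III). Cox8b and Cox8c were at or near 0 and were not tested, so 83 or 84 members entered each test. As a share of all counts, members made up 2.64 to 3.66% of the regional libraries.

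The coIP was compared with input to ask which transcripts were recovered with synaptopodin. In WT control cultures, 69 of the 84 members tested were lower in coIP than in input and none was higher, with a median 1.89-fold lower (median log2 fold change −0.92, against 0.04 over all 18222 genes tested). A gene was called where edgeR's quasi-likelihood test gave a Benjamini-Hochberg adjusted p under 0.05 over all genes tested, and 25.5% of all genes were called lower and 29.6% higher. This test did not pair each coIP sample with its input, and calls with that pairing are given further below. Lower members made up 35 of 38 in complex I, 3 of 4 in complex II, 7 of 8 in complex III, 9 of 17 in complex IV and 15 of 17 in complex V. In WT ECL cultures 67 of 83 members were lower and none higher (median −1.01, against 0.02), with 27.8% of all genes lower and 30.5% higher. In the samples labelled Synpo-/-, 52 of 84 were lower and none higher (median −0.59, against 0.02), with 16.4% of all genes lower and 15% higher. Without input replicate 2 of the Synpo-/- label, 32 were lower.

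The smallest p of each complex in WT control belonged to Ndufv2, Sdhc, Uqcrb, Cox7b and Atp5g3. Ndufv2, a core subunit of the NADH-oxidising arm of complex I (chr17:66078638-66101559, GRCm38), had 790.5, 601, 577, 560.4 and 499 normalised CPM in input and 278, 298, 206, 216 and 232 in coIP. All 5 coIP samples lay below all 5 inputs, with a log2 fold change of −1.28 (SE 0.13, adjusted p = 2.07e-06) by edgeR. Sdhc, a membrane anchor of succinate dehydrogenase (chr1:171127165-171150603), had 155, 138, 120.0, 131 and 124 in input and 69.7, 72.4, 49.7, 65.8 and 69.6 in coIP, a log2 fold change of −1.01 (SE 0.11, adjusted p = 3.28e-06) by edgeR. The groups did not overlap here either, nor for Uqcrb, Cox7b and Atp5g3.

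Uqcrb, a small subunit of complex III (chr13:66900617-66905378), had 243, 180.4, 182, 185 and 158 normalised CPM in input and 76.4, 88.8, 47.2, 67.2 and 72.3 in coIP, a log2 fold change of −1.41 (SE 0.15). Cox7b, a small subunit of complex IV (chrX:106015700-106022450), had 281, 216, 218, 224 and 175 in input and 90.8, 118, 66.2, 88.7 and 88.4 in coIP (−1.29, SE 0.14 on the log2 scale). Atp5g3, 1 of 3 genes for the membrane c subunit of ATP synthase (chr2:73908447-73911326), had 319.6, 277, 262, 255 and 241 in input and 113, 120.5, 92.4, 104 and 104 in coIP (−1.32, SE 0.10). The other genes for this subunit fell as well, with log2 fold changes of −1.23 (SE 0.13) for Atp5g1 and −0.87 (SE 0.11) for Atp5g2. The steepest called change was that of Cox7b2, a rarely expressed form of the Cox7b subunit, at −1.55 (SE 0.51, adjusted p = 0.0182) by edgeR, between 0.0863 to 0.639 normalised CPM in coIP and 0.454 to 1.18 in input, where the groups overlapped.

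In WT ECL cultures the same 5 members were lower, with log2 fold changes of −1.37 (SE 0.17) for Ndufv2, −1.12 (SE 0.12) for Sdhc, −1.41 (SE 0.22) for Uqcrb, −1.30 (SE 0.19) for Cox7b and −1.24 (SE 0.15) for Atp5g3. The steepest was Ndufa5, an accessory subunit of complex I, at −1.53 (SE 0.23). In the samples labelled Synpo-/-, the smallest p of each complex belonged to Ndufb3 (−0.97, SE 0.16), Sdhc (−0.94, SE 0.13), Uqcrb (−0.97, SE 0.16), Cox7a2l (−1.22, SE 0.15) and Atp5g1 (−1.08, SE 0.15). Cox7a2l, known for joining complexes III and IV, had 316 and 298 normalised CPM in these inputs and 153 and 118 in coIP. Of the 83 members tested in all 3 settings, 49 were lower in each of them, 18 in 2 and 4 in 1 of them.

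The 12 members called in none of the 3 settings by the unpaired test were Ndufs1, Ndufb9, Sdha, Uqcrc1, Cox4i1, Cox5a, Cox5b-ps, Cox6a1, Cox6b2, Cox6c, Cox8a and Atp5b. Among them are Ndufs1, the large iron-sulphur subunit of complex I, Sdha, the flavoprotein of complex II, Uqcrc1, a core protein of complex III, and Atp5b, the catalytic beta subunit of complex V. Cox6a1 (chr5:115345642-115348981), the ubiquitous form of its subunit, had 527, 530.4, 411, 459 and 401 normalised CPM in WT control input and 418, 714, 448, 724 and 598 in coIP. The groups overlapped and its log2 fold change of 0.34 (SE 0.15, adjusted p = 0.0704) by edgeR was not called, nor were those of 0.36 (SE 0.24) in WT ECL and 0.26 (SE 0.13) in the samples labelled Synpo-/-. Input is an aliquot of the lysate used for coIP, and with this pairing as a replicate block edgeR called Cox6a1 higher in WT control (log2 fold change 0.31, adjusted p = 0.0183) and in WT ECL (0.30, adjusted p = 0.045). Atp5b had 853, 879, 816, 779 and 741 normalised CPM in WT control input and 827, 899, 675, 858 and 749 in coIP, with overlapping groups and a log2 fold change of −0.00 (SE 0.09). Ndufs1 had a log2 fold change of 0.06 (SE 0.09), Sdha of −0.06 (SE 0.09), Uqcrc1 of −0.22 (SE 0.12) and Cox4i1, the ubiquitous form of its subunit, of −0.08 (SE 0.11).

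Core subunits on the catalytic path stood on both sides of the call in WT control. Uqcrfs1, the Rieske iron-sulphur protein, had a log2 fold change of −0.51 (SE 0.15, adjusted p = 0.00972) and Sdhb, the iron-sulphur subunit of complex II, had −0.80 (SE 0.16, adjusted p = 0.000782) by edgeR, both called lower. Ndufv1, the NADH-binding subunit, had −0.25 (SE 0.11, adjusted p = 0.0704) by edgeR and was not called in WT control. Atp5a1, the alpha subunit of ATP synthase, had −0.17 (SE 0.08) and was not called, while in WT ECL its value of −0.29 (SE 0.10, adjusted p = 0.0279) by edgeR was.

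**Figure D1:**
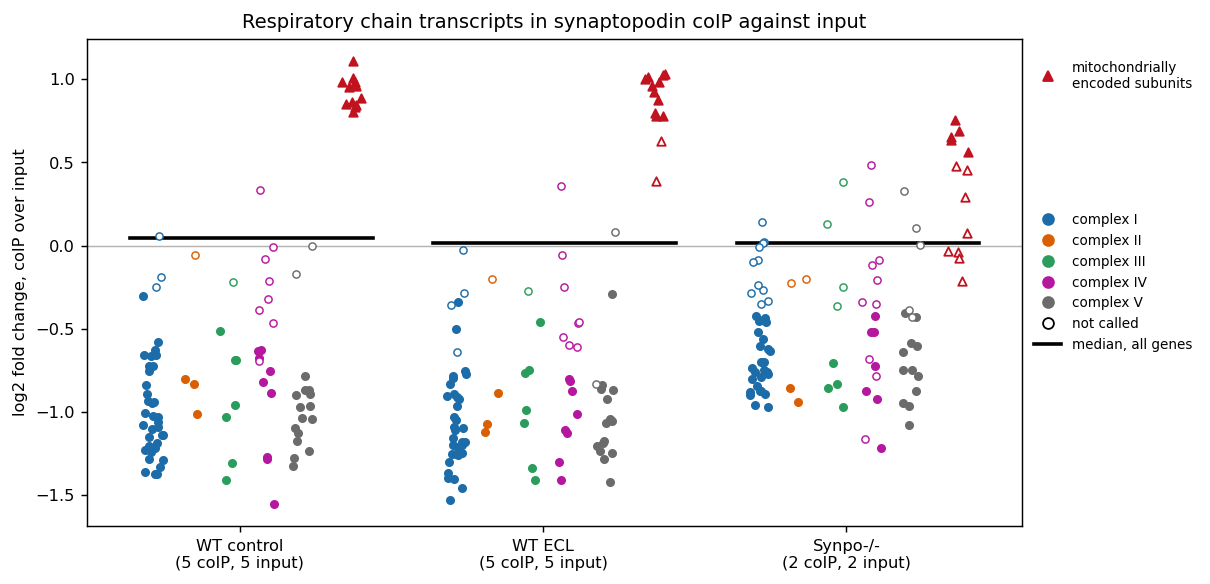
Log2 fold change of coIP over input for each member, by complex, and for the mitochondrially encoded subunits (triangles), in WT control, WT ECL and the samples labelled Synpo-/-, filled where called by edgeR and open where not, with the median of all genes as a line. Most members lie below that line in each setting (medians −0.92, −1.01 and −0.59) and most mitochondrially encoded subunits above it (0.95, 0.92 and 0.45).

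The 13 subunits encoded by mitochondrial DNA had positive medians in coIP over input. In WT control all 13 were higher in coIP than in input (median log2 fold change 0.95, range 0.80 to 1.11), in WT ECL 11 (median 0.92), and in the samples labelled Synpo-/- 5 (median 0.45, range −0.21 to 0.75). mt-Cytb, the cytochrome b of complex III, had 6661, 6743, 7133, 7524 and 6461 normalised CPM in WT control input and 11078, 14162, 14576, 13282 and 14206 in coIP. The groups did not overlap, and the log2 fold change was 0.98 (SE 0.09, adjusted p = 1.02e-06) by edgeR. mt-Co1, the catalytic subunit of complex IV, had a log2 fold change of 0.85 (SE 0.10). Leaving out any library kept 13 higher in WT control and 11 or 12 in WT ECL, while in the samples labelled Synpo-/- the count was 2 without input replicate 2 and 3 without coIP replicate 1. Mitochondrially encoded genes made up 1.69 to 1.91% of all counts in WT control input and 3.34 to 3.94% in coIP, and members 2.04 to 2.74% and 1.36 to 1.87%.

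Transcript length moved with the coIP change over all genes. Transcript length is that of the annotated principal transcript of each gene, or of the longest among ties. The form expressed in these cultures may be shorter, and its length was not measured. By this annotation members have short transcripts, with a median of 787 bases (360 to 4715), against 3042.5 over 14310 genes. In WT control, the median log2 fold change of genes over 500 and up to 1000 bases long was −0.85, and that of the 43 members of this length −0.96. From there up to 2000 bases the medians were −0.47 for all genes and −0.88 for 24 members, and from 2000 to 4000 bases −0.02 and −0.55 for 6 members. The 2 members annotated above 4000 bases, Ndufb2 (4371) and Atp5g1 (4715), had a median of −0.95, and all genes of that length 0.41. Their place in this class rests on the transcript chosen. Spearman's rho between transcript length and log2 fold change was 0.54 across 13402 genes and 0.17 across 81 members, where genes share the libraries and are not independent. With the trend over gene length removed, edgeR called 4 members higher and 50 lower in WT control, 4 and 45 in WT ECL and 7 and 28 in the samples labelled Synpo-/-. With trends over transcript length and GC content removed, an alternative chosen after seeing the data, the counts were 9 and 37, 7 and 33, and 9 and 14, and all genes then had a median of 0.09 in WT control. Cox6a1 was among the higher under the latter, at 0.81 (adjusted p = 1.17e-05, edgeR), and Atp5g1 and Sdhc remained lower, at −1.38 and −0.99. Values with both trends removed depend on the same annotated lengths. The trend over gene length was instead taken over all exon bases of a gene, joined across its transcripts.

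**Figure D2:**
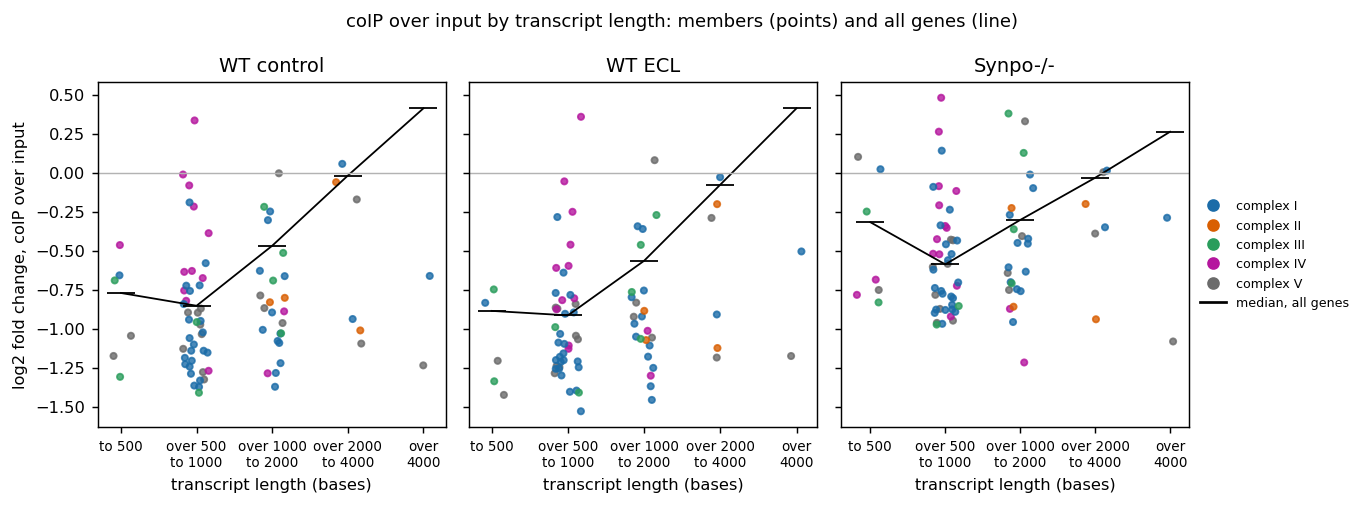
Log2 fold change of coIP over input (y axis) by class of transcript length in bases (x axis) in WT control, WT ECL and the samples labelled Synpo-/-, with members as points coloured by complex and the medians of all genes as dashes joined by a line. In WT control the all-gene medians go from −0.85 in the class up to 1000 bases to 0.41 above 4000 bases, and the member medians lie between −0.55 and −0.96.

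Most mitochondrial ribosomal proteins and assembly factors were lower in coIP as well in WT control. Of the 77 mitochondrial ribosomal proteins tested, which translate the mitochondrially encoded subunits, 70 were lower in coIP and none higher (median −0.98), led by Mrpl36 (−1.64, SE 0.11). Assembly factors were lower in 12 of 15 cases for complex I, 3 of 4 for II, 5 of 6 for III, 12 of 18 for IV and 1 of 3 for V, with Ndufaf4 at −1.17 (SE 0.09), Sdhaf4 at −1.39 (SE 0.13), Lyrm7 at −1.46 (SE 0.13), Coa3 at −1.53 (SE 0.12) and Atpaf2 at −0.76 (SE 0.10). Cycs, cytochrome c, had −1.80 (SE 0.16), whereas Cyc1, the cytochrome c1 of complex III, had −0.09 (SE 0.28) and was not called. Of 16 genes of the tricarboxylic acid cycle, 10 were lower and 2 higher, and of 12 biogenesis regulators 3 were lower and 3 higher. Cell type markers moved in both directions in coIP over input. Of microglial markers 3 of 8 were lower (Aif1 at −1.88, SE 0.17) and none higher, of interneuron markers 2 of 5 lower (Pvalb at −1.87, SE 0.19) and 1 higher, and of granule cell markers 2 of 5 lower (Tdo2 at −0.78, SE 0.27). Of general neuronal markers 1 of 5 was lower (Snap25 at −1.08, SE 0.13) and 1 higher, and of CA3 markers 1 of 5 lower (Cpne4 at −0.33, SE 0.09) and 2 higher. Astrocyte markers were higher for 2 of 6 (Aldh1l1 at 0.99, SE 0.18), pericyte and mural markers for 2 of 4 (Pdgfrb at 1.42, SE 0.30) and endothelial markers for 1 of 3 (Flt1 at 0.85, SE 0.14), while none of 6 oligodendrocyte markers was called. Their part in the result was not tested.

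The difference between genotypes in coIP over input was tested directly, as the WT control change minus the change in the samples labelled Synpo-/-. No member was called by edgeR (0% of all genes), 19 had an unadjusted p under 0.05, and DESeq2 called 0. The median difference was −0.41 on the log2 scale, against 0.01 over all genes. Samples labelled Synpo-/- held 42886994 to 53682143 counts each, against 12888443 to 26730691 in WT control input and coIP. The part of depth, or of other differences between these sets of samples, in the median difference was not tested. Between WT ECL and WT control, coIP over input differed for no member by edgeR (0% of all genes) or DESeq2, with 1 at an unadjusted p under 0.05.

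After ECL, 11 of 84 members were lower in WT input by edgeR and none higher (median −0.20 on the log2 scale, against −0.00 over all genes), with 3.16% of all genes lower and 2.45% higher. Among them were Ndufa10 of complex I, Uqcrc1 of complex III, Cox5a, Cox5b, Cox5b-ps, Cox6a1, Cox6a2 and Cox8a of complex IV, and Atp5b and Atp5d of complex V. Cox6a1 had 527, 530.4, 411, 459 and 401 normalised CPM in control and 274, 237, 254, 295 and 417 in ECL. Only ECL replicate 5 reached the range of the controls, and the log2 fold change was −0.66 (SE 0.14, adjusted p = 0.0174) by edgeR. Atp5d, the delta subunit in the stalk of ATP synthase, had 95.7, 124, 97.5, 98.6 and 98.3 in control and 32.2, 25.0, 36.8, 71.7 and 78.5 in ECL, with no overlap (−1.08, SE 0.26, adjusted p = 0.0289, edgeR). Cox5a, an accessory subunit of complex IV, had 9.51, 16.6, 7.78, 6.67 and 4.15 in control and 2.26, 1.46, 1.66, 3.36 and 5.05 in ECL (−1.70, SE 0.38, adjusted p = 0.0185, edgeR), with 12.8% of its exon bases shared with another gene. The count rests on few samples, since it was 0 without input ECL replicate 3 or input control replicate 2, 2 without input ECL replicate 2, 4 without ECL replicate 1, 5 without control replicate 1, and 6 without control replicate 3 or 4. Summed microglial markers were 556 to 1088 normalised CPM in control and 1019.6 to 1469 in ECL (3 of 8 genes higher), and 1 of 6 astrocyte markers, Gfap, was higher (0.51, SE 0.13). Summed neuronal markers were 7423 to 8934 and 6413 to 7878 (1 of 5 lower, Tubb3 at −0.47, SE 0.12), and of granule cell markers 1 of 5 was lower (Calb1 at −0.53, SE 0.11). Interneuron markers summed to 1021 to 2097 and 810.4 to 1114 with none called, nor was any of the CA3, oligodendrocyte, endothelial or pericyte markers. The part of these cells in the result was not tested.

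In the coIP samples themselves, ECL and control differed for no member by edgeR (0.314% of all genes called), with 14 at an unadjusted p under 0.05 and 1, Atp5d, called by DESeq2. Without coIP ECL replicate 5, 4 members were lower by edgeR.

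In the WT DG, ECL was followed by higher levels of 9 of 84 members and a lower level of 1 by edgeR (median 0.26 on the log2 scale, against −0.00), with 7.86% of all genes higher and 4.31% lower. Among the higher were Ndufa9, Ndufs3, Ndufs8 and Ndufb7 of complex I, Sdhc and Sdhd of complex II, Uqcrc1 of complex III and Cox6b2 of complex IV, and lower was Cox6a2 of complex IV. Without ECL replicate 5, 11 were higher and 1 lower (median 0.16, against −0.03). In the DG labelled Synpo-/-, Cox6b2, Uqcrfs1 and Cox5a were higher and Cox6a2 lower (median 0.03, against 0.01), with 5.17% of all genes higher and 3.36% lower. In bulk tissue, fewer cells of a type and less RNA per cell cannot be told apart.

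Cox6a2 (chr7:128205435-128206387), the striated-muscle form of its subunit, was the only member lower after ECL in the DG of either label by edgeR. It had 57.1, 40.0, 29.3 and 20.9 normalised CPM in WT DG control and 13.4 to 19.0 (median 14.7) in WT DG ECL, where replicate 5 held the lowest value. No ECL library reached a control library, and the log2 fold change was −1.26 (SE 0.20, adjusted p = 0.00129), or −1.24 (SE 0.19, adjusted p = 0.000615) without ECL replicate 5, by edgeR. In the DG labelled Synpo-/-, controls had 38.0 to 53.7 (median 45.1) and ECL libraries 12.0, 21.5, 17.2 and 28.9, again without overlap (−1.18, SE 0.18, adjusted p = 0.000663, edgeR). In CA3 Cox6a2 was low in every group, with 11 to 11.9 in WT control and 10.3 to 16.3 in the controls labelled Synpo-/-. As a share of Cox6a1 and Cox6a2 together, Cox6a2 made up 3.41 ± 0.839% in WT DG control (SD, n = 4) and 1.42 ± 0.403% in ECL (n = 7), or 1.55 ± 0.217% without replicate 5 (n = 6), and 4.13 ± 1.31% (n = 7) and 1.93 ± 1.07% (n = 4) in the DG labelled Synpo-/-. The exons of Cox6a2 share 10.3% of their bases with another gene, Itgad.

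Cox6b2 (chr7:4751792-4753094), the testis form of its subunit, changed in the other direction. It had 7.29, 7.63, 6.13 and 5.95 normalised CPM in WT DG control and 9.23 to 21.5 (median 17.6) in ECL, with replicate 5 lowest and above every control (1.22, SE 0.23, adjusted p = 0.00481, or 1.31, SE 0.19, adjusted p = 0.000263 without that replicate, edgeR). In the DG labelled Synpo-/-, it had 7.32 to 10.1 (median 9.06) in control and 17.6, 19.7, 14.6 and 14.9 in ECL, without overlap (0.85, SE 0.12, adjusted p = 0.000341, edgeR). Its share of Cox6b1 and Cox6b2 together was 0.952 ± 0.0729% and 1.97 ± 0.715% in WT (2.17 ± 0.536% in ECL without replicate 5), and 1.12 ± 0.135% and 2.08 ± 0.333% under the Synpo-/- label. The calls of Cox6a2 and Cox6b2 were kept under every alternative fit in which they were tested, 11 in WT and 10 under the Synpo-/- label. The genotypes' lesion responses differed by −0.05 (SE 0.28) for Cox6a2 and 0.40 (SE 0.27) for Cox6b2 on the log2 scale, or by −0.01 and 0.51 without WT DG ECL replicate 5, and neither difference was called in either fit.

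The other calls in the DG were less steady. Uqcrc1 (chr9:108936633-108949623) had 149, 89.5, 121 and 97.7 normalised CPM in WT DG control and 135 to 321 (median 171) in ECL, with replicate 5 highest, so that 1 control library lay inside the ECL range (0.73, SE 0.20, adjusted p = 0.0305, or 0.56, SE 0.14, adjusted p = 0.0155 without that replicate, edgeR). Sdhc had a log2 fold change of 0.57 (SE 0.16), Ndufa9 of 0.62 (SE 0.18) and Ndufb7 of 0.42 (SE 0.11), and without replicate 5 these were 0.47, 0.48 and 0.35, all still called by edgeR. Without WT DG control replicate 2, 3 or 4, and with trends over transcript length and GC content removed, 1 member was higher and 1 lower. Removing both trends also moved the median of all genes from −0.00 to −0.14. In the DG labelled Synpo-/-, Uqcrfs1 had 57.3 to 69.9 in control and 76.4, 64.0, 144 and 160.4 in ECL (0.78, SE 0.19, adjusted p = 0.016, edgeR), and Cox5a 13.1 to 54.2 and 53.7, 14.4, 189 and 192 (1.95, SE 0.49, adjusted p = 0.0193, edgeR). ECL replicates 3 and 4 held the high values of both genes, and without either replicate 1 member was higher and 1 lower. With both trends removed, 3 were higher and 7 lower.

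Markers of glia rose in the same DG libraries. Summed microglial markers were 341 to 480.1 normalised CPM in WT DG control and 922 to 1122 in ECL (8 of 8 genes higher), and summed astrocyte markers 3064 to 3819 and 5509 to 7320.3 (5 of 6). Without ECL replicate 5 the ECL sums were 922 to 1122 and 5509 to 7320.3, with 8 of 8 and 6 of 6 genes higher. Under the Synpo-/- label, 7 of 8 and 6 of 6 were higher. Markers of interneurons summed to 722 to 1239.7 in WT DG control and 594 to 1061 in ECL (796 to 1061 without replicate 5). None of these 5 genes was called, with log2 fold changes from −0.30 for Gad1 to 0.16 for Pvalb. Under the Synpo-/- label, where Cox6a2 was lower as well, they summed to 824 to 1084 in control and 752 to 1451 in ECL, and Gad1 was lower (−0.44, SE 0.12, adjusted p = 0.0334, edgeR) while Pvalb had 0.22 (SE 0.23) and was not called. Of endothelial markers in the WT DG, 1 of 4 was lower after ECL, and of oligodendrocyte markers 1 of 6 was higher. The part of these cells in the result was not tested. Of the 77 mitochondrial ribosomal proteins, 18 were higher in the WT DG after ECL and none lower (19 and none without replicate 5), and of the 12 mitochondrially encoded subunits tested edgeR called none, or 1 lower, mt-Co1, without replicate 5. For ECL in the DG labelled Synpo-/-, edgeR called mt-Co1 lower (−0.47, SE 0.10, adjusted p = 0.00718). Mrps6, Mrps24, Mrps26 and Mrps34 were called higher there.

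In CA3, ECL was followed by higher Atp5d and Cox5a in WT (2 of 84 members, with 1.5% of all genes higher and 0.273% lower). The median of members there was 0.17 on the log2 scale, against −0.01 over all genes, with 56 of 84 positive. Atp5d had 53.4 and 46.5 normalised CPM in WT CA3 control and 90.9, 96.2 and 107 in ECL (0.87, SE 0.13, adjusted p = 0.0269, edgeR), and Cox5a 63.7 and 26.3 and 176, 125 and 156 (1.65, SE 0.31, adjusted p = 0.0399, edgeR). Neither overlapped, but with 2 controls the count was 0 without ECL replicate 1 or 2, and 7 without control replicate 2. Both genes went the other way in WT input, where edgeR called them lower after ECL. In CA3 labelled Synpo-/-, edgeR called none (0.077% of all genes), 23 had an unadjusted p under 0.05 and DESeq2 called 1, Ndufb2. The median there was 0.18, against 0.00, with 70 of 84 members positive. The lesion response differed between genotypes for no member by edgeR or DESeq2, in the DG (0.00381% of all genes called by edgeR, 16 members at an unadjusted p under 0.05, 13 without WT DG ECL replicate 5) or in CA3 (0%, 11 members). In the DG, WT minus the Synpo-/- label, the median difference was 0.26 on the log2 scale, against 0.02 over all genes. The difference was positive for 78 of 84 members. Without WT DG ECL replicate 5 the median was 0.19, against 0.03, with 75 positive. In CA3 the median was 0.04, against −0.06.

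**Figure D3:**
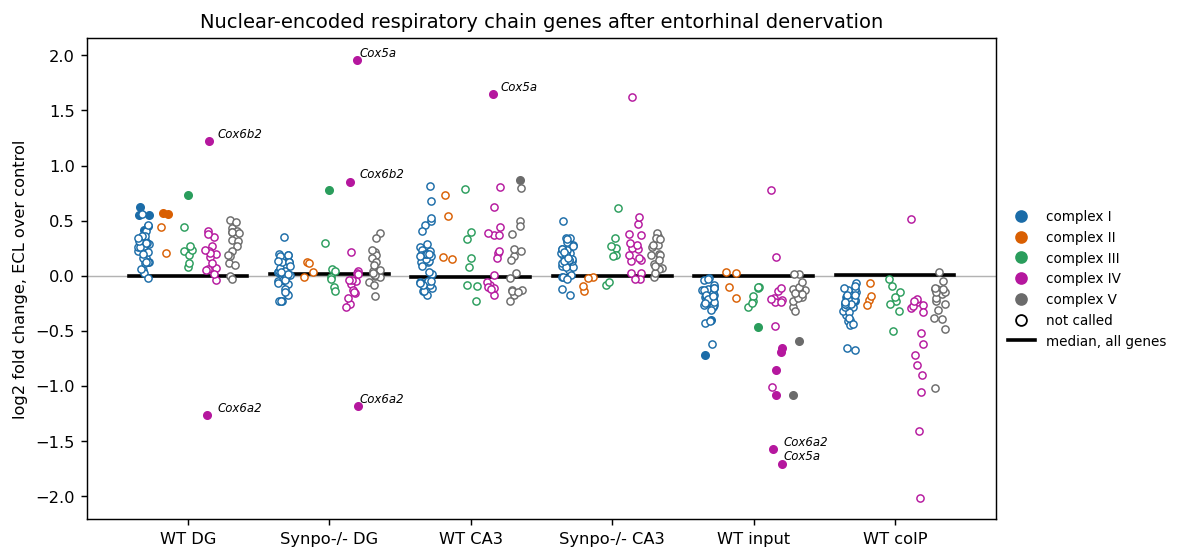
Log2 fold change of ECL over control for each member, by complex, in the DG and CA3 of both genotype labels and in WT input and coIP, filled where called by edgeR and open where not, with the median of all genes as a line. Cox6a2 (−1.26 and −1.18) and Cox6b2 (1.22 and 0.85) are called in the DG of both labels.

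The DG was compared with CA3 to see how the chain differs between the regions. In WT control, 3 of 84 members were higher in the DG and 6 lower by edgeR (median −0.35 on the log2 scale, against 0.02), with 2.63% of all genes higher and 2.75% lower. In the controls labelled Synpo-/-, 6 were higher and 10 lower (median 0.02, against 0.05), with 13.1% and 12.5% of all genes. After ECL, 2 were higher and none lower in WT (1.54% and 0.508% of all genes), and 5 higher and 6 lower under the Synpo-/- label (7.37% and 6.24%). In WT ECL the count was 0 without CA3 ECL replicate 1, 2 or 3, and WT DG ECL replicate 5, with its low Prox1, decided it in the other direction. Without it, 5 members were higher and 52 lower (median −0.37, against 0.05), with 7.51% of all genes higher and 12.3% lower. The 52 made up 26 of 38 members of complex I, 1 of 4 of II, 5 of 8 of III, 11 of 17 of IV and 9 of 17 of V. These comparisons share DG and CA3 libraries with the lesion comparisons.

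All members higher in the DG were tissue-restricted forms or Ndufa4l2, except Uqcrh, a small subunit of complex III, in the controls labelled Synpo-/- (0.30, SE 0.09). Cox4i2 (chr2:152754173-152765037), the oxygen-responsive form of its subunit known from lung, had 3.68 and 4.43 normalised CPM in WT CA3 control and 12.8, 10.4, 13.0 and 12.6 in WT DG control. The groups did not overlap (1.60, SE 0.21, adjusted p = 0.000378, edgeR). In the controls labelled Synpo-/-, it had 4.55 to 10.4 (median 6.31) in CA3 and 14.9 to 25.4 (median 19.1) in the DG, again apart (1.58, SE 0.17, adjusted p = 1.06e-06, edgeR). After ECL its log2 fold change was 1.02 (SE 0.23) in WT, 1.08 (SE 0.18, adjusted p = 0.000439) without replicate 5, and 1.13 (SE 0.14) under the Synpo-/- label, by edgeR.

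Ndufa4l2 (chr10:127514967-127517154), known as a hypoxia-induced paralog of Ndufa4, had 1.51 and 1.50 normalised CPM in WT CA3 control and 6.53, 3.67, 5.24 and 4.77 in WT DG control, without overlap (1.77, SE 0.31, adjusted p = 0.00358, edgeR). In the controls labelled Synpo-/-, its groups of 3.55 to 7.37 and 5.60 to 13.7 did overlap (0.96, SE 0.19, adjusted p = 0.00099, edgeR). Cox6a2 was higher in the DG in WT control (1.70, SE 0.31, adjusted p = 0.00462) and in the controls labelled Synpo-/- (1.84, SE 0.11, adjusted p = 8.39e-10) by edgeR, and after ECL at 0.65 (SE 0.20, adjusted p = 0.0468) under the Synpo-/- label. Cox7a1 (chr7:30184144-30186078), the heart and muscle form of its subunit, and Cox6b2 were higher in the DG under the Synpo-/- label in control (0.83, SE 0.20 and 0.74, SE 0.14) and after ECL (0.98, SE 0.23 and 1.17, SE 0.15). In these DG libraries Rgs5, a pericyte marker, was higher as well (1.30, SE 0.24 in WT control and 2.10, SE 0.19 under the Synpo-/- label). Rgs5 made up most of the summed markers of pericytes and mural cells, which were 27.6 to 67.7 in CA3 and 120.0 to 225 in the DG of controls labelled Synpo-/-. Without Rgs5, the sum of Pdgfrb, Cspg4 and Acta2 was 8.09 to 11.1 in CA3 and 6.08 to 10.4 in the DG, and none of these 3 was called there or in WT control. The part of these genes' cells in the result was not tested.

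**Figure D4:**
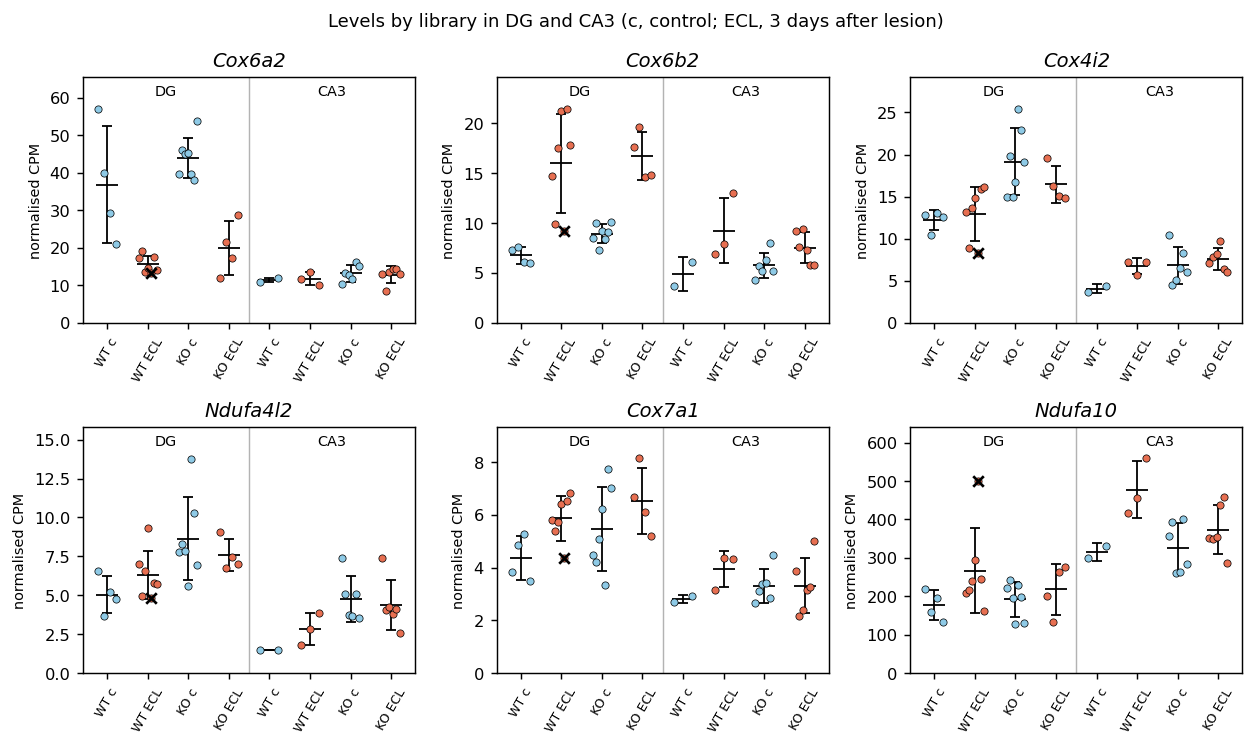
Normalised CPM of Cox6a2, Cox6b2, Cox4i2, Ndufa4l2, Cox7a1 and Ndufa10 in each regional library, by group (DG left, CA3 right), with the mean and SD as dash and bars, and a cross for WT DG ECL replicate 5. Cox6a2 is higher in DG control than in DG ECL, Cox6b2 higher in DG ECL, and Cox4i2 higher in the DG than in CA3.

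Of the members lower in the DG, 5 of 6 in WT control and 5 of 10 in the controls labelled Synpo-/- belong to complex I. Complex I holds 38 of the 86 members. Ndufa4, counted under complex I by its name, is among those lower in WT control. Ndufa10 (chr1:92439010-92473860), an accessory subunit of the membrane arm, had 299 and 331 normalised CPM in WT CA3 control and 220.2, 160.3, 196 and 132 in WT DG control, without overlap (−0.82, SE 0.17, adjusted p = 0.0118, edgeR). In the controls labelled Synpo-/-, it had 260.1 to 402 (median 321) in CA3 and 128 to 241 (median 198) in the DG, and again all DG libraries were lower (−0.66, SE 0.14, adjusted p = 0.00174, edgeR). Ndufa12 (−0.73, SE 0.14), Ndufa4 (−0.65, SE 0.14), Uqcr10 (−0.51, SE 0.14), Ndufs8 (−0.51, SE 0.14) and Ndufb6 (−0.52, SE 0.14) were the others lower in WT control. Under the Synpo-/- label the others were Uqcrc1 (−0.67, SE 0.13), Ndufa9, Ndufs1, Ndufs8, Ndufv1, Sdhd, Atp5a1, Atp5b and Atp5g1. The WT control count was 3 higher and 21 lower without DG control replicate 2, and 3 and 0 without CA3 control replicate 2, and it was 3 and 2 without CA3 control replicate 1 or DG control replicate 3. After ECL under the Synpo-/- label, Ndufa4 (−0.62, SE 0.14), Ndufa5, Ndufa10 (−0.77, SE 0.19), Ndufb8, Ndufb9 and Cox6c were lower. There the count was 4 higher and 3 lower without DG ECL replicate 1 and 3 and 3 without replicate 3. Removing the length trend gave 5 and 20, and both trends 4 and 27.

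Of 16 genes of the tricarboxylic acid cycle, 14 were lower in the DG of controls labelled Synpo-/- and none higher (median −0.39), and of 77 mitochondrial ribosomal proteins 18 were lower and 2 higher. In the same libraries summed neuronal markers were 3209 to 4967 normalised CPM in the DG and 6436 to 8222 in CA3, and those of oligodendrocytes 474 to 1385 and 1649 to 2626. The part of cell composition in the result was not tested.

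**Figure D5:**
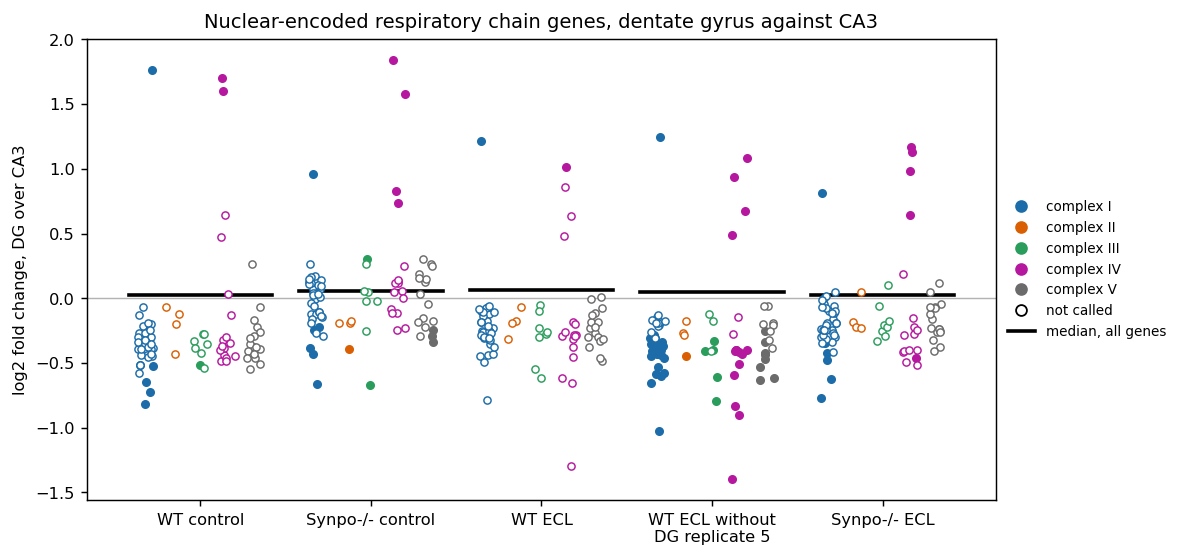
Log2 fold change of DG over CA3 for each member, by complex, in control and ECL libraries of both genotype labels and in WT ECL without DG replicate 5, filled where called by edgeR and open where not, with the median of all genes as a line. Cox4i2 and Ndufa4l2 are above the line and called in all 4 comparisons (for Cox4i2 1.60, 1.58, 1.02 and 1.13).

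Finally, libraries labelled Synpo-/- were compared with WT. edgeR called no member in the DG control (0.0166% of all genes called, 22 members at an unadjusted p under 0.05, 3 by DESeq2) or the CA3 control (0.00413%, 29 and 6). After ECL edgeR called none in the DG (0.0166%, 0 and 0, and 1 at an unadjusted p under 0.05 without WT DG ECL replicate 5) or in CA3 (0.00891%, 7 and 1). The smallest adjusted p in control CA3 belonged to Ndufa4l2, with 1.51 and 1.50 normalised CPM in WT and 3.55 to 7.37 (median 4.41) under the Synpo-/- label (1.59, SE 0.33, adjusted p = 0.0895, edgeR). Those groups did not overlap, and there were 2 WT libraries. In control DG it was Cox4i2 (0.61, SE 0.14, adjusted p = 0.207, edgeR), with 12.8, 10.4, 13.0 and 12.6 in WT and 14.9 to 25.4 (median 19.1) under the Synpo-/- label.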

How the data were processed

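Libraries of WT and Synpo-/- entorhino-hippocampal cultures (39 regional, 24 coIP or input) were analysed from the deposited tables of whole-number read counts per gene. Per the labels and the methods, the authors trimmed reads with cutadapt 3.5, aligned them to mm10 (GRCm38) with STAR 2.7.8a and counted them with featureCounts 2.0.1 (versions given for 59 samples) on GENCODE M25 without regard to strand, and kept samples with over 60% uniquely mapped reads. The deposited counts are not normalised. Reads were 150 bases long in the coIP and 100 in the regional experiment, so levels are not compared between them. Unstranded counting cannot tell a gene from an antisense partner, and 31 of the 86 members share exon bases with another gene, none over 50%. Pseudogene copies may take or give reads.

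Counts of the groups compared were filtered, scaled by TMM and fitted with edgeR 4.0.16 in R 4.3.3 (limma 3.58.1), using the quasi-likelihood test with Benjamini-Hochberg adjustment over all genes tested. Alternatives were DESeq2 1.42.0, relative log expression size factors, no filter on low counts, a mean normalised count over 300, removal of a lowess trend over length (span 0.3, on genes with a mean count over 50), a replicate block and leaving out each library of groups of up to 5. The fitting procedure was tested on simulated counts with 2-fold changes in genes with a mean count over 50. For coIP over input it recovered 89% of them in WT control and 67.5% under the Synpo-/- label. It recovered 59.5% for the genotype difference in lesion response in the DG. For the genotype difference in coIP over input it recovered 35.5%, which limits what could be called there. The 130 pairs of libraries within groups all differed beyond sampling noise. Depth was 11601154 to 53682143 counts per library. By the methods, an aliquot of each lysate was kept as input, and the deviations of same-numbered WT coIP and input samples correlated at 0.30 to 0.64 in control and 0.16 to 0.63 in ECL. The titles of the inputs labelled Synpo-/- carry 2 numbers that disagree. The SPko number was used, the correlation was 0.087, and which input belongs to which coIP sample there is not certain. In no other comparison did every same-numbered pair correlate over 0.1.

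Genes named were core subunits of each complex, members with tissue-restricted forms, the smallest p per complex and comparison, the largest called change in each direction, and members with positive values in coIP. The first gene by p of an accompanying list was named in some comparisons and not in others. Among those left out were Ndufab1 and Mrps34, called lower after ECL in WT input, and Cyc1 and Mrps34, called higher in WT CA3. Values for further members called in small counts are also named, and these were chosen after their values were seen. The members, lists and rule were chosen with earlier results of these data known. Promoters came from RefSeq for 68 of 86 members. Results for 1 item are not reported here.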

Additional observations from a re-analysis of the deposited data

Results flagged for a closer look

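Within groups of 4 to 10 libraries, 180 sets of values (17 genes and the share of counts taken by members) were searched for 1 library far from the others by Dixon's criterion, and 14 were found (7.78%, where chance gives about 5%, 1 in 20). WT DG ECL replicate 5 held 6 of them. Members made up 3.54% of its counts, against 2.92 to 3.12% in the other libraries of its group. It had 500.2 normalised CPM of Ndufa10 (163 to 295 in the others), 1789.8 of Cox6a1 (650 to 985), 1219 of Cox6b1 (755 to 857), 1168 of Cox8a (383 to 623) and 1727 of Ndufa4 (894 to 1132). This is the library with low Prox1 and high Cpne4.

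In CA3 ECL labelled Synpo-/-, replicate 6 was low in Ndufs1 (108.5, against 162 to 179) and Uqcrc1 (127, against 211 to 244), replicate 2 low in Cox6a2 (8.59, against 13.1 to 14.5) and replicate 1 high in Ndufa4l2 (7.41, against 2.59 to 4.26). Among coIP and input samples, Cox5a stood out in WT coIP ECL replicate 5 (4.38, against 1.1 to 1.49) and WT coIP control replicate 2 (21.5, against 2.0 to 6.19). Cox6a2 stood out in WT input control replicate 1 (78.8, against 13.6 to 30.3) and Atp5d in WT input control replicate 2 (124, against 95.7 to 98.6).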

How the results depend on the processing

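Counts of members called, higher and lower together, are given where they moved by over 1.5 times. The trends over transcript length and GC content were removed as an alternative chosen after seeing the data. Of the 65 named calls, 32 were kept under every alternative run and 33 were lost under at least 1. The cause of the moves below was not tested.

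In coIP over input, removing both trends gave 40 in WT ECL and 23 under the Synpo-/- label, and removing the length trend turned the log2 fold changes of Cox4i2 and Ndufa4l2 in WT control to 0.10 and 0.10. With the pairing as a replicate block, edgeR called 76 members in WT control and in WT ECL. The genotype difference in coIP over input gave 4 without a filter on low counts.

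For the lesion, the block gave 6 in WT input, where numbers do not pair the samples. In WT coIP, DESeq2 gave 1 and no filter 3. In the WT DG, removing the length trend gave 3 and both trends 2. In WT CA3, DESeq2 gave 11, no filter 17, the block 6, and either trend removal 0, with a median of −0.058 for members when both were removed. In the DG labelled Synpo-/- the block gave 2 and removing both trends 10, and in CA3 of that label DESeq2 and no filter each gave 1.

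For DG against CA3 in WT control, DESeq2 gave 19, no filter 15 and the block 3. In WT ECL, DESeq2 gave 6, no filter 5, the block, in which DG libraries without a CA3 library of the same number carry no weight, 57, and removing both trends 4. In ECL labelled Synpo-/-, DESeq2, the length trend and the block each gave 25, and both trends 31. For the Synpo-/- label against WT, DESeq2 gave 3 and no filter 1 in control DG, DESeq2 6, no filter 12 and the block 26 in control CA3, and DESeq2 1, no filter 1 and the block 4 in ECL CA3. Same-numbered samples in these comparisons share only a number.

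Leaving out 1 library gave 67 to 72 in WT control coIP over input, 60 to 74 in WT ECL and 32 to 61 under the Synpo-/- label. It gave 0 to 12 for the lesion in WT input, 0 to 4 in WT coIP, 2 to 12 in the WT DG, 0 to 7 in WT CA3 and 2 to 6 in the DG labelled Synpo-/-. For DG against CA3 it gave 3 to 24 in WT control, 0 to 57 in WT ECL and 6 to 9 in ECL labelled Synpo-/-. Groups with few libraries, such as the 2 WT CA3 controls, and low counts, such as those of Cox7b2, limit what could be called.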
